A study of Danio rerio with 9 samples.

Results

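The 30 genes described here encode the enzymes that build cholesterol from acetyl-CoA and the proteins that control that supply. They were chosen by gene name: the list covers 22 enzymes of the mevalonate and sterol pathway, 5 genes of the sterol-sensing SREBP switch and 3 genes of low-density lipoprotein (LDL) uptake and sterol handling. All 30 names were found among the 26983 genes of the count table, and all 30 passed the filter on low counts that left 19450 genes. RNA came from intestine of zebrafish (Danio rerio), a small fish used to model gut inflammation caused by feed. The study title names soybean meal enteritis, and β,β-dimethylacryloyl shikonin (a shikonin ester, from a family of red plant pigments) as the agent. The 9 libraries fall into 3 groups of 3, coded D3, SBM and FM. What each code stands for is left unsaid in the sample labels, which also lack strain, age, sex, dose, time and feed and do not say whether a library is 1 fish or a pool. The p-values below therefore weigh group differences only against the spread between these libraries, and part of that spread may be technical.

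Cells make cholesterol in the endoplasmic reticulum by a long chain of enzymes. Acetyl-CoA is turned into mevalonate, mevalonate into farnesyl diphosphate, and farnesyl diphosphate into squalene, lanosterol and finally cholesterol. In vertebrates the switch is the transcription factor SREBP2: when sterols are scarce its escort protein SCAP carries it to the Golgi for cleavage, and when sterols are plentiful INSIG proteins hold it back. The enzymes of the chain and the LDL receptor are the classical targets of that switch, so their transcripts are known to move as a block. In the gut, absorptive enterocytes take up dietary sterol and also make their own.

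Depth was similar across libraries, from 34436497 to 36203230 counts, and a listed gene had between 114 and 25809 counts in a library. Levels are given as CPM, the usual depth-scaled count, with library sizes scaled by TMM factors, always in the order of libraries 1, 2 and 3 of a group. The gut markers fabp2 and anpepb were abundant in each library (1317 to 5478 and 1623 to 6805 CPM). Transcripts of other organs differed between libraries of the same group. Of the 22 oocyte markers found, none was at 0 in any library, and their summed share of the counts was 0.612% in the third D3 library and 0.592% in the first SBM library. The remaining 7 libraries had 0.00579 to 0.0832%. Egg coat genes zp3b and zp3a.2 had the highest mean levels of that list over the 9 libraries, with 703 and 576 CPM in D3 library 3. The 20 hepatocyte markers, also above 0 in each library, took 2.18% and 6.92% of the counts in D3 libraries 1 and 2 and 3.94% in the second SBM library. The remaining 6 had 0.0662 to 0.421%. The transferrin gene tfa and the yolk protein gene vtg1 led that list, at 13178 and 26957 CPM in D3 library 2. With vtg2 (9574 CPM), vtg1 made up a large part of the list's sum of 67594.5 CPM in that library. In D3 library 1 the 2 yolk genes were at 29.4 (vtg1) and 8.36 CPM (vtg2), of 21331.4 CPM. Liver and ovary tissue make or handle cholesterol themselves, so these shares are set beside the results below. In bulk tissue, fewer cells of a type and less RNA per cell cannot be told apart.

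None of the 30 genes passed the test in any comparison, and a single FM library stood apart for the pathway. FM library 1 had the highest level of the 9 libraries for 20 of the 30 genes, and the highest of the 3 FM libraries for 24. The matching shares over all tested genes were not computed. The 30 genes together took 0.399% of its counts, against 0.175% in FM library 2 and 0.145% in FM library 3. The same share was 0.144, 0.217 and 0.179% in D3 and 0.181, 0.236 and 0.204% in SBM. The median ratio of FM library 1 to the mean of FM libraries 2 and 3 was 2.19 over the 30 genes and 0.991 over all tested genes. The ratio exceeded 2 for 17 of the 30 genes and for 4.41% of tested genes.

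By median, the excess of FM library 1 was larger for the enzymes than for the regulators. It was the highest FM library for 4 of 4 early mevalonate genes, 5 of 6 isoprenoid genes and 11 of 12 squalene and sterol genes, and for 3 of 5 SREBP control genes and 1 of 3 LDL and transport genes. The median ratio was 2.67, 3.31 and 2.25 for the 3 enzyme groups, and 1.23 and 0.921 for SREBP control and for LDL and transport. Markers of other cell types are given beside it. Exocrine pancreas markers took 18, 13.9 and 16.1% of the counts in FM libraries 1, 2 and 3, the first being the highest of all 9 libraries, enterocyte markers 1.52, 1.88 and 1.76%, and hepatocyte markers 0.177, 0.342 and 0.0922%. The part of pancreas, gut or liver transcripts in the excess was not tested.

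**Figure D1:**
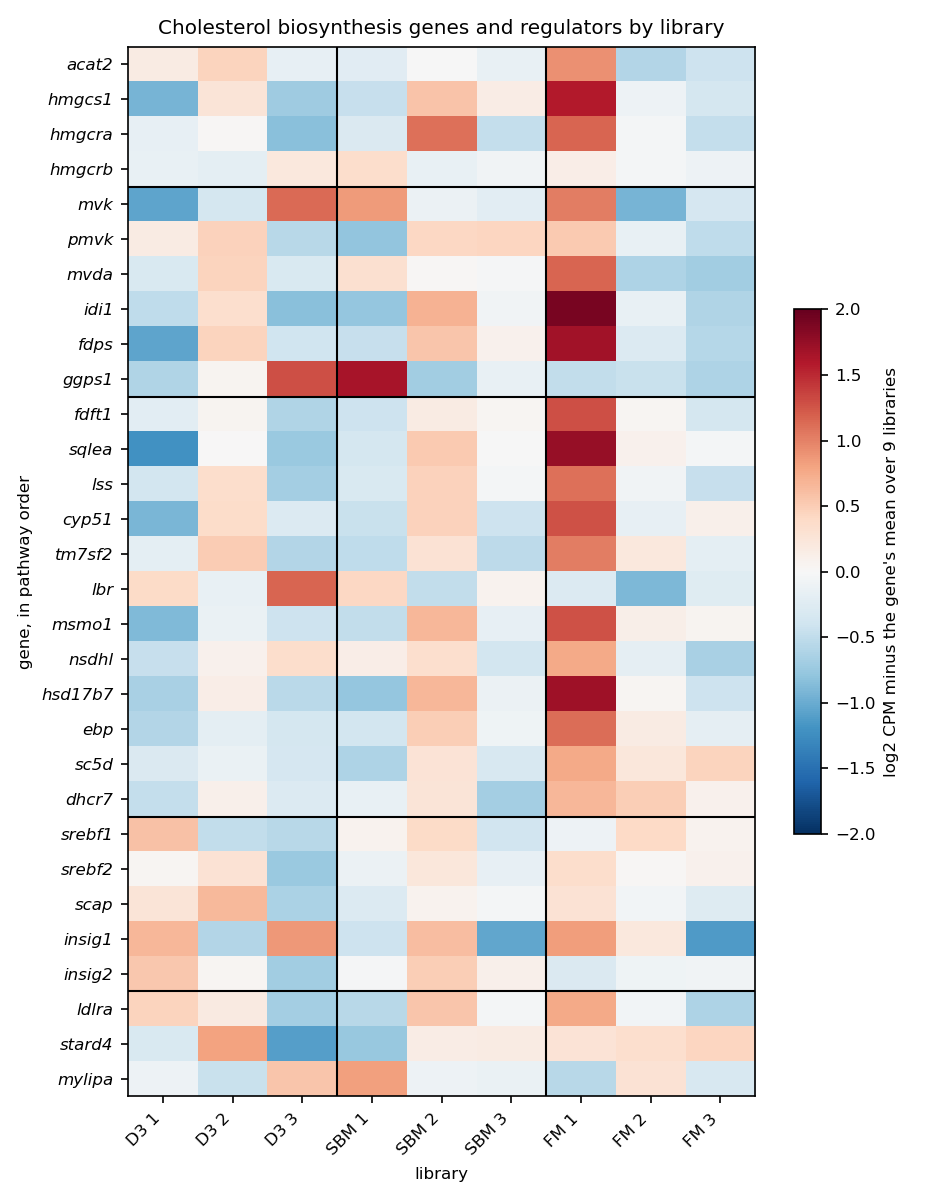
Heat map of the 30 genes (rows, in pathway order, black lines between roles) in the 9 libraries (columns, D3, SBM and FM). Colour is log2 CPM minus the gene's mean over the 9 libraries, red above and blue below. FM library 1 is the reddest column in the enzyme rows, where it is the highest of the 9 libraries for 3 of 4, 4 of 6 and 11 of 12 genes of the 3 enzyme groups.

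The early mevalonate steps showed that pattern plainly. The gene hmgcs1, which encodes the synthase that makes HMG-CoA, was at 86.8, 197 and 101 CPM in D3, 120.1, 244 and 183 CPM in SBM and 495, 153 and 129.8 CPM in FM. Levels of hmgcra, which encodes the rate-limiting HMG-CoA reductase, the target of statins, were 132, 151 and 83.4 CPM in D3, 121, 319 and 106 CPM in SBM and 334, 144 and 107 CPM in FM. FM library 1 was the highest of the 9 for both genes, SBM library 2 came next, and the 3 groups overlapped. For acat2, the cytosolic thiolase gene at the head of the pathway, the values were 50.2, 61.2 and 40.1 CPM in D3, 38.4, 44.6 and 40.5 CPM in SBM and 84.6, 29.7 and 33.7 CPM in FM, with FM library 1 again on top and FM libraries 2 and 3 at the bottom. The second reductase gene, hmgcrb, was at 23.2, 22.5 and 29.8 CPM in D3, 32.7, 23.2 and 24.5 CPM in SBM and 28.1, 25.04 and 23.98 CPM in FM. It varied least of all 30 genes, by a factor of 1.45 between the highest and the lowest library, and its 2 highest libraries were those rich in oocyte transcripts. Per length, on the FPKM scale, hmgcra stood above hmgcrb in each library, by factors of 4.99, 5.87 and 2.45 in D3, 3.25, 12.04 and 3.81 in SBM, and 10.4, 5.03 and 3.89 in FM. How reads shared by the 2 copies were counted is not given in the sources used here.

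Among the isoprenoid steps, idi1, which encodes the isomerase of isopentenyl diphosphate, had the largest ratio of FM library 1 to the mean of the other FM libraries of all 30 genes, at 4.76. Its levels were 129.6, 232 and 103 CPM in D3, 108, 299 and 176 CPM in SBM and 684, 166 and 122 CPM in FM. The farnesyl diphosphate synthase gene fdps was at 49.99, 141 and 78.95 CPM in D3, 75.2, 154 and 111 CPM in SBM and 332, 86.5 and 69.7 CPM in FM, with a ratio of 4.26. Both genes had D3 library 2, SBM library 2 and FM library 1 as the highest library of each group. The decarboxylase gene mvda was at 22.3, 37.3 and 22.3 CPM in D3, 34.2, 27.95 and 26.97 CPM in SBM and 61.8, 17.97 and 16.99 CPM in FM, and FM libraries 2 and 3 were its lowest values of all. The phosphomevalonate kinase gene pmvk was low throughout, at 7.03, 8.63 and 4.29 CPM in D3, 3.63, 8.33 and 8.45 CPM in SBM and 9.07, 5.65 and 4.43 CPM in FM.

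The genes mvk and ggps1 followed another order. Mevalonate kinase (mvk) was at 3.16, 5.15 and 14.4 CPM in D3, 11.8, 6.07 and 5.72 CPM in SBM and 13.4, 3.47 and 5.21 CPM in FM, so D3 library 3 and SBM library 1, the oocyte-rich ones, stood with FM library 1 above the remaining 6. The gene ggps1, whose product makes the geranylgeranyl group attached to small GTPases, was at 12.7, 19.9 and 46.7 CPM in D3, 59.8, 11.8 and 17.3 CPM in SBM and 13.5, 14.1 and 12.5 CPM in FM. FM library 1 was level with the rest of FM for ggps1. The 2 oocyte-rich libraries lay above the other 7 for 4 of the 30 genes, ggps1, hmgcrb, lbr and mylipa, and of 27.3% of all tested genes. The part of ovary transcripts in these levels was not tested.

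Of the squalene and sterol steps, sqlea, which encodes squalene epoxidase, the second point of control in the pathway, had the widest range of all 30 genes, a factor of 7.74. It was at 16.4, 38.6 and 22.7 CPM in D3, 30.1, 54.99 and 37.98 CPM in SBM and 127, 40.5 and 37.3 CPM in FM. FM library 1 lay far above the others, and D3 library 1 was the lowest. The squalene synthase gene fdft1 was at 12.4, 14.8 and 9.396 CPM in D3, 10.7, 16.03 and 14.7 CPM in SBM and 34.95, 14.8 and 11.3 CPM in FM, and the lanosterol synthase gene lss at 25.4, 42.02 and 20.6 CPM in D3, 26.6, 44.97 and 31.9 CPM in SBM and 70.5, 31.4 and 23.98 CPM in FM. Both had FM library 1 highest and D3 library 3 lowest of the 9. The most abundant transcript per length was msmo1, the methyl sterol oxidase gene, with 176 ± 45.3, 243 ± 57.02 and 302 ± 154 FPKM in D3, SBM and FM (mean ± SD, n = 3 each). Its CPM levels were 191, 319.9 and 263 CPM in D3, 251, 556 and 313 CPM in SBM and 851, 383 and 365 CPM in FM, and each D3 library lay below each FM library on that scale. On FPKM, D3 library 2 (209.6) lay above FM library 3 (200.6). The lanosterol demethylase gene cyp51 was second per length in FM (112 ± 62.9 FPKM), at 113, 274 and 175 CPM in D3, 155, 291 and 158 CPM in SBM and 509.8, 189.8 and 228 CPM in FM. The groups overlapped for cyp51, and D3 library 1 had the lowest value.

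The last steps trim and reduce the sterol ring. The desaturase gene sc5d was at 75.96, 85.02 and 73.6 CPM in D3, 60.9, 113 and 74.8 CPM in SBM and 157, 108 and 127 CPM in FM. Each D3 library lay below each FM library, and FM library 1 was only 1.34 times the mean of the other 2. The isomerase gene ebp was at 32.8, 43.3 and 38.7 CPM in D3, 38.4, 70.1 and 46.8 CPM in SBM and 108, 55.4 and 43.6 CPM in FM. In CPM, D3 again lay wholly below FM, by a narrow margin (43.3 in D3 library 2, 43.6 in FM library 3). On FPKM these groups overlapped. For dhcr7, the reductase gene of the final step, levels were 28.3, 42.2 and 32.8 CPM in D3, 35.6, 47.03 and 24.7 CPM in SBM and 62.3, 55.3 and 41.9 CPM in FM, and D3 overlapped FM through D3 library 2. The 2 genes that complete the sterol demethylation stood at 34.6, 50.9 and 60.9 CPM in D3, 52.2, 60.1 and 36.9 CPM in SBM and 81.1, 42.4 and 30.7 CPM in FM for nsdhl, and at 12.6, 21.7 and 13.6 CPM in D3, 11.6, 31.6 and 18.3 CPM in SBM and 64.2, 20.4 and 14.9 CPM in FM for hsd17b7, the keto-reductase gene. The groups overlapped for both.

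The genes tm7sf2 and lbr encode 2 reductases that can carry out the same step, and their orders across libraries differed. The gene tm7sf2 was at 32.7, 53.4 and 25.02 CPM in D3, 26.5, 46.2 and 26.1 CPM in SBM and 76.2, 43.4 and 32.9 CPM in FM, with FM library 1 highest. By contrast lbr, whose product is also the lamin B receptor of the nuclear envelope, was at 18.6, 12.9 and 31.9 CPM in D3, 19.05, 10.1 and 14.96 CPM in SBM and 11.8, 7.67 and 12.1 CPM in FM. Each D3 library lay above each FM library for lbr, and the highest level was in the oocyte-rich D3 library 3, followed by SBM library 1.

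**Figure D2:**
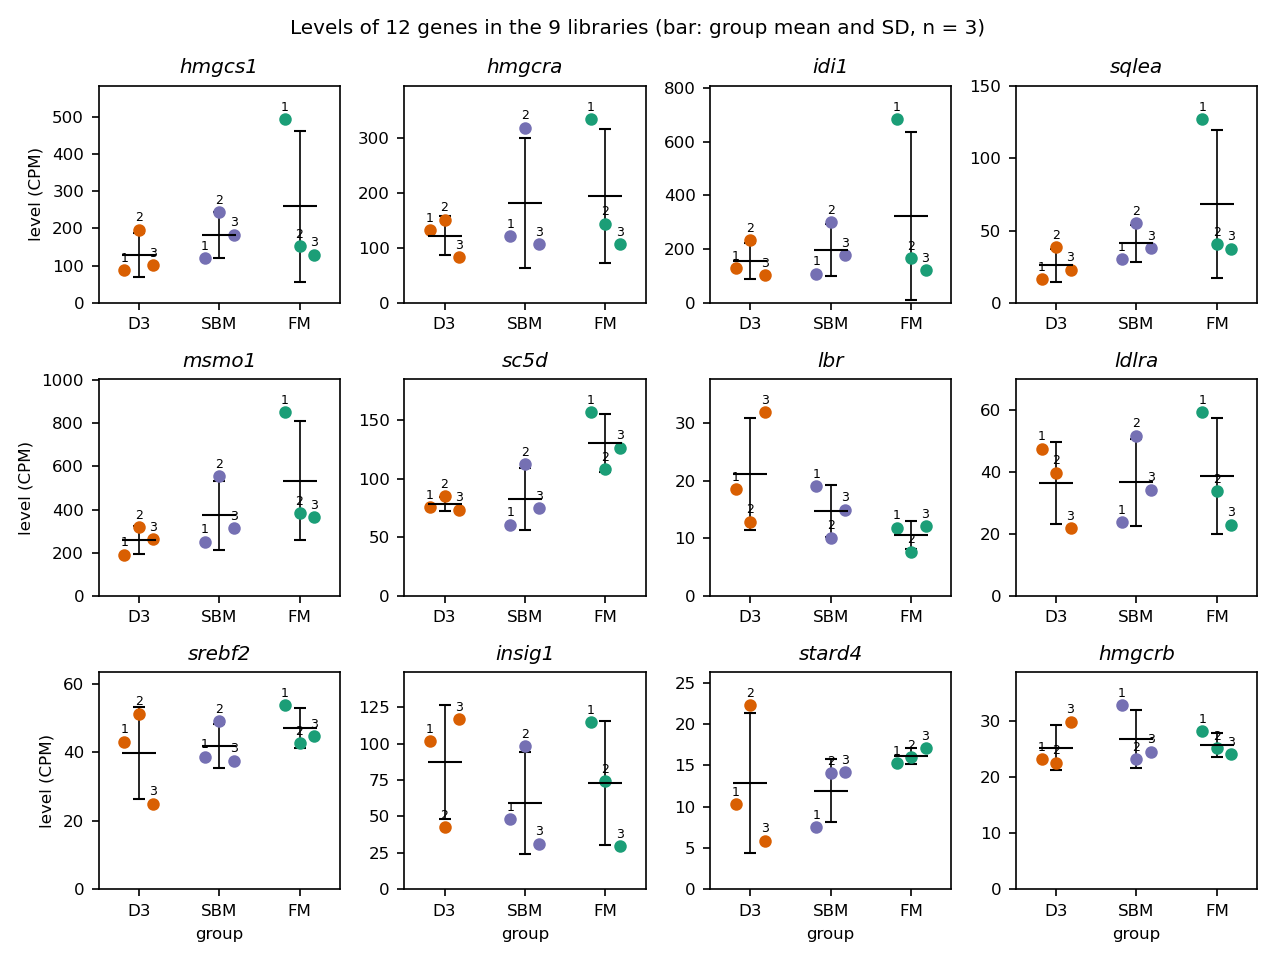
Levels of 12 of the genes in CPM (linear axis from 0) by group, D3, SBM and FM from left to right. Points are libraries, numbered 1 to 3, and the black bar is the group mean with its SD (n = 3). FM library 1 is the top point for hmgcs1, hmgcra, idi1, sqlea, msmo1, sc5d, ldlra and srebf2, and hmgcrb stays between 22.5 and 32.7 CPM.

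Among the regulators FM library 1 stood out less by median ratio. Single genes crossed that line: the ratio was 2.21 for insig1 and 2.09 for ldlra, and 1.28 and 1.14 for the enzyme genes dhcr7 and hmgcrb. The gene srebf2, which encodes the switch of cholesterol synthesis, was at 43.1, 51.3 and 24.95 CPM in D3, 38.7, 49.1 and 37.5 CPM in SBM and 53.7, 42.7 and 44.7 CPM in FM. Its FM library 1 was 1.23 times the mean of the other 2, where hmgcs1 was 3.5 times. The gene srebf1, whose product acts mainly on fatty acid synthesis, was at 30.7, 14.5 and 13.9 CPM in D3, 21.5, 26.6 and 15.7 CPM in SBM and 19.1, 26.8 and 21.4 CPM in FM, and FM library 1 was the lowest of FM. The escort gene scap was at 28.2, 36.95 and 15.2 CPM in D3, 19.5, 24.7 and 22.9 CPM in SBM and 28.7, 22.6 and 19.6 CPM in FM. None of the 3 separated the groups. The retention gene insig1, itself a target of the switch, was at 102, 42.8 and 117 CPM in D3, 48.1, 98.2 and 31.2 CPM in SBM and 115, 74.3 and 29.4 CPM in FM, and spread widely within each group. Its relative insig2 was low, at 7.67, 5.45 and 3.26 CPM in D3, 5.203, 7.45 and 5.67 CPM in SBM and 4.32, 4.95 and 5.02 CPM in FM, and each SBM library lay above each FM library.

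The LDL receptor gene ldlra, which brings cholesterol in from lipoproteins, was at 47.5, 39.7 and 21.9 CPM in D3, 23.8, 51.7 and 34.3 CPM in SBM and 59.3, 33.9 and 22.9 CPM in FM. FM library 1 was highest and the 3 groups overlapped. The sterol carrier gene stard4 was at 10.3, 22.2 and 5.87 CPM in D3, 7.53, 14.04 and 14.2 CPM in SBM and 15.2, 16.01 and 17.1 CPM in FM, with each SBM library below each FM library and with D3 libraries on both sides. On FPKM, which lacks TMM scaling, SBM library 3 (12.7) lay above each FM library (10.9 at most). The gene mylipa encodes the ubiquitin ligase that sends the LDL receptor to degradation. It was at 35.2, 27.99 and 55.5 CPM in D3, 66.8, 35.2 and 34.5 CPM in SBM and 25.9, 46.2 and 30.4 CPM in FM, highest in the oocyte-rich libraries and lowest in FM library 1.

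In D3 against FM, the pathway's enzymes had mostly negative log2 fold changes, none past the threshold (0% of tested genes were called). Of the 30 genes 21 were negative and 9 positive, where 47.6% of tested genes were negative and 52.4% positive, with a median of −0.29 against 0.04 over all tested genes, and 11 of the 12 squalene and sterol genes were negative (median −0.73). The largest were sqlea at −1.40 ± 0.54 (mean 25.9 ± 11.4 CPM in D3 and 68.4 ± 51.04 CPM in FM), idi1 at −1.06 ± 0.69, hsd17b7 at −1.05 ± 0.59, msmo1 at −1.05 ± 0.43 and hmgcs1 at −1.02 ± 0.57 (SE, n = 3 each). EdgeR called 0 of the 30 genes and 0 of 19450 (smallest adjusted p 0.32, shared by sc5d). Before adjustment 4 genes that were lower in D3 lay under 0.05: sqlea (unadjusted p = 0.0295), msmo1 (unadjusted p = 0.0402), ebp (unadjusted p = 0.047) and sc5d (unadjusted p = 0.021). So did lbr, higher in D3 at 1.004 ± 0.38 (unadjusted p = 0.0289, adjusted p = 0.32). Over all tested genes that rule took 15.2%, with 7.14% lower and 8.05% higher. With library size alone in place of TMM scaling, 15 genes were positive and 15 negative, the median was −0.04 against 0.30 over all genes, and lbr alone had an unadjusted p under 0.05. Limma-voom and DESeq2 each called 0 of the 30 genes as well, while DESeq2 called 918 of all tested genes. In CPM, groups did not overlap for msmo1, ebp and sc5d (lower in D3) and for lbr (higher in D3), against 13.6% and 12.8% of all tested genes (26.4% in either direction). On FPKM, which lacks TMM scaling, sc5d and lbr stayed apart. There msmo1 overlapped (209.6 in D3 library 2, 200.6 in FM library 3), as did ebp (32.8 in D3 library 3, 27.4 in FM library 3).

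These values rested largely on FM library 1. Without it the median in D3 against FM was 0.03, with 14 genes negative and 16 positive, and sqlea was at −0.59 ± 0.40, msmo1 at −0.54 ± 0.39 and hmgcs1 at −0.15 ± 0.44. The log2 fold change of idi1 changed sign, to 0.10 ± 0.51, as did those of fdps (0.20 ± 0.48) and lss (0.08 ± 0.38). Of the late steps, sc5d was at −0.59 ± 0.29 (edgeR unadjusted p = 0.0809) against −0.74 ± 0.26 with all libraries, and dhcr7 at −0.51 ± 0.32 against −0.63 ± 0.28. The value of lbr was 1.08 ± 0.46 without FM library 1 and 0.57 ± 0.29 without the 2 oocyte-rich libraries.

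In SBM against FM, 23 of the 30 genes had negative log2 fold changes and 7 positive ones, none past the threshold (0% of tested genes were called). The median was −0.27 against −0.01 over all tested genes, where 50.5% of tested genes were negative and 49.5% positive. With library size alone in place of TMM scaling it was −0.03 against 0.26 over all genes, with 15 genes on each side. The largest were sqlea and idi1, each at −0.74 with SEs of 0.53 and 0.68, and on the positive side ggps1 at 1.15 ± 0.65, highest in SBM library 1. EdgeR called 0 of the 30 genes and 0 of 19450 (smallest adjusted p 0.541), and limma-voom and DESeq2 called 0 of the 30. DESeq2 called 238 of all tested genes. Before adjustment sc5d alone lay under 0.05, at −0.66 ± 0.26 (mean 82.7 ± 26.8 CPM in SBM and 131 ± 24.5 CPM in FM, unadjusted p = 0.0343, adjusted p = 0.541). Over all tested genes that rule took 8.94%, with 3.41% lower and 5.53% higher. In CPM, groups did not overlap for insig2 (higher in SBM, 0.36 ± 0.33) and stard4 (lower in SBM, −0.44 ± 0.46), against 9.56% and 10.3% of all tested genes (19.9% in either direction). On FPKM insig2 stayed apart, while stard4 overlapped (12.7 in SBM library 3, 10.9 in FM library 2).

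Without FM library 1 the median in SBM against FM turned to 0.22, with 22 genes positive and 8 negative, against 0.02 over all genes. The log2 fold change was then 0.43 ± 0.51 for idi1, 0.36 ± 0.45 for hmgcs1 and 0.07 ± 0.41 for sqlea. Both sc5d (−0.51 ± 0.29) and dhcr7 (−0.45 ± 0.32, against −0.57 ± 0.28 with all libraries) stayed below 0. SBM library 2, rich in hepatocyte transcripts and the highest SBM library for 22 of the 30 genes, acted the other way: without it the median was −0.56.

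**Figure D3:**
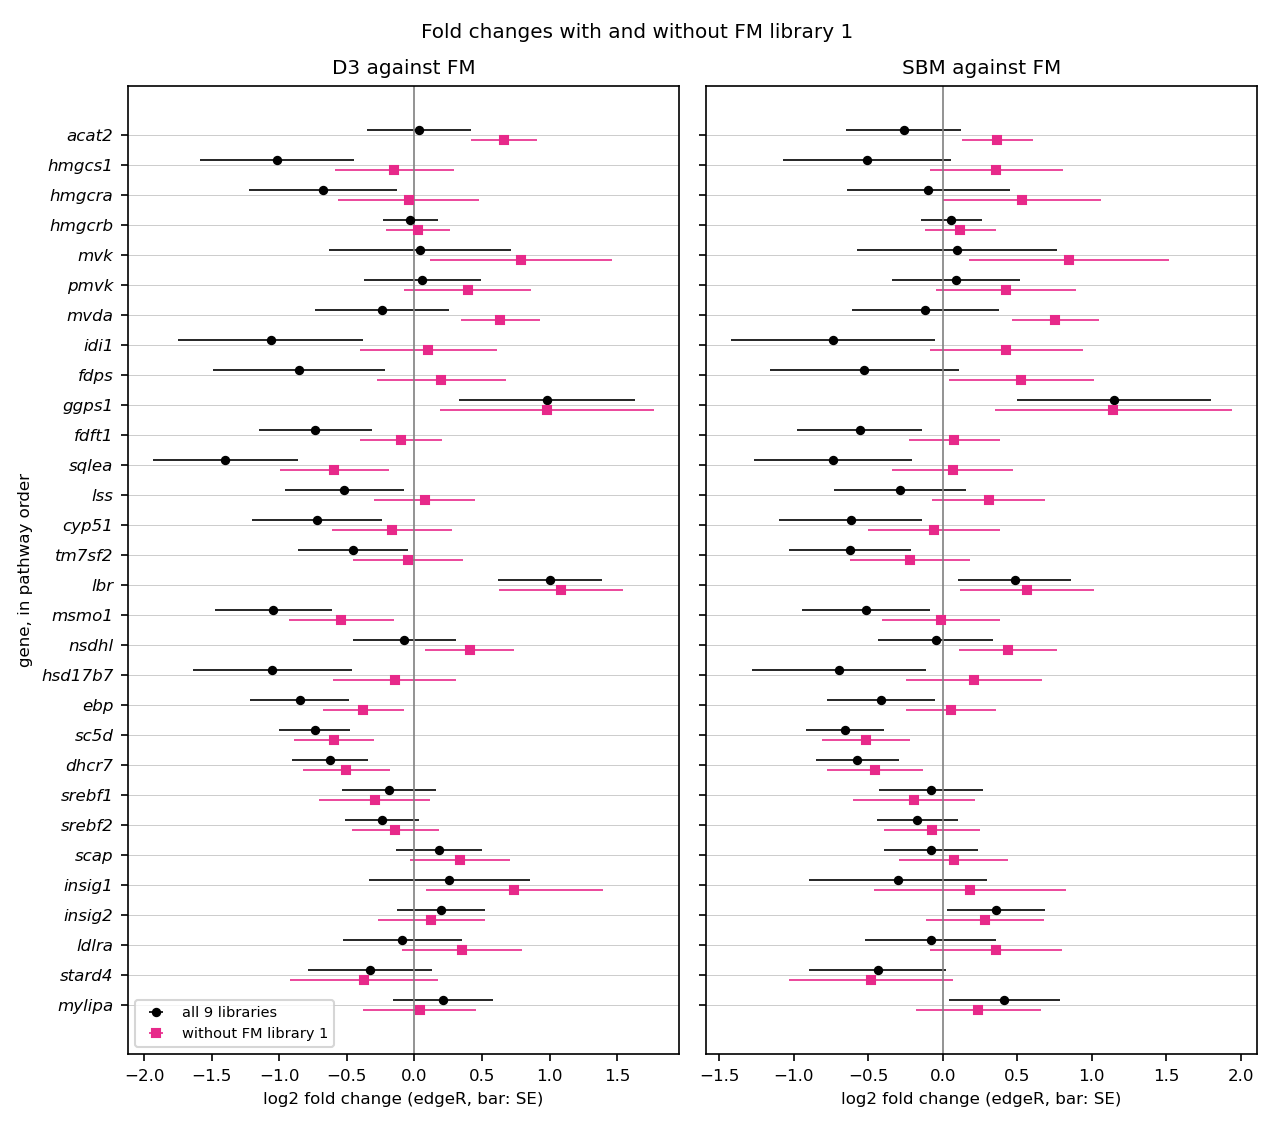
Log2 fold changes from edgeR with their SE for the 30 genes, in D3 against FM (left) and SBM against FM (right), with all 9 libraries (black) and without FM library 1 (pink). The pink points lie to the right of the black ones for most enzymes, and those of idi1 lie right of 0 in both panels, while sc5d, dhcr7, lbr and ggps1 keep their side.

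In D3 against SBM, no gene of the pathway passed the threshold (0% of tested genes were called). The median was −0.11 against 0.03 over all tested genes, with 24 genes negative and 6 positive, where 45.3% of tested genes were negative and 54.7% positive. The values ran from −0.66 ± 0.53 for sqlea to 0.56 ± 0.60 for insig1, with lbr at 0.52 ± 0.38. EdgeR called 0 of the 30 genes, and 0 had an unadjusted p under 0.05, against 2.07% of tested genes (0.746% higher, 1.32% lower). Limma-voom and DESeq2 also called 0, and DESeq2 called 5 of all tested genes. The 2 groups overlapped for all 30 genes, where 4.56% of tested genes did not overlap (2% higher, 2.56% lower). Without SBM library 2 the median was 0.10, with 19 genes positive. These 3 comparisons share libraries, so their values are not independent of each other.

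Within D3 and SBM a single library led the block too, by less than FM library 1 did in FM. The median ratio to the mean of the other 2 libraries of the group was 1.39 for D3 library 2 and 1.49 for SBM library 2. For FM library 1 it was 2.19. Over all tested genes the 3 medians were 0.935, 0.989 and 0.991. The ratio exceeded 2 for 3, 4 and 17 of the 30 genes, and for 5.35, 9.37 and 4.41% of tested genes. In D3 library 3 it also exceeded 2 for 3 of the 30 genes, and for 21.8% of tested genes. D3 library 2 was the highest of D3 for 20 of the 30 genes and for 10 of 12 squalene and sterol genes, and SBM library 2 the highest of SBM for 22 and 11. How many of all tested genes were highest in these libraries was not computed. Both were rich in hepatocyte markers. D3 library 1 was too, at 2.18% of counts, and it was the lowest of D3 for 7 of 12 squalene and sterol genes. The transferrin gene tfa was at 6668, 13178 and 415 CPM in D3, 1624, 14243 and 146 CPM in SBM and 654, 1126 and 176 CPM in FM. From the bile acid synthesis list, cyp8b1, the gene of the sterol hydroxylase that shapes cholic acid, was at 54.6, 195 and 12.03 CPM in D3, 14.3, 72.96 and 42.3 CPM in SBM and 36.04, 39.8 and 17.1 CPM in FM. The part of liver transcripts in the levels of the cholesterol genes was not tested.

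The neighbouring lists were read from the same fit, in which no gene passed. Of 17 remaining sterol and SREBP processing genes found, 16 were tested and 0 were called. A second LDL receptor gene, ldlrb, was at 27.3, 22.8 and 23.6 CPM in D3, 33.3, 32.9 and 32.8 CPM in SBM and 63.4, 34.97 and 31.98 CPM in FM. In CPM each D3 library lay below each FM library (−0.82 ± 0.27, edgeR unadjusted p = 0.0136, adjusted p = 0.32), and FM library 1 was the highest library. Raw counts of D3 library 1 and FM library 3 were nearly level, at 985 and 988. Scaled by library totals alone, D3 and FM overlapped for this gene. The adaptor gene ldlrap1a was at 36 CPM in D3 library 3 and 26.9 CPM in SBM library 1, against 1.78 to 7.18 CPM elsewhere. Its relative ldlrap1b had 0.59 ± 0.34 in D3 against SBM, and the ligase gene mylipb −0.70 ± 0.30 in SBM against FM.

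Genes of cholesterol uptake, storage and export (26 found, 25 tested) had a median of −0.19 for D3 over FM, 0.02 for D3 over SBM and −0.47 for SBM over FM. An unadjusted p under 0.05 occurred for 4 lower and 3 higher genes, for 0, and for 3 lower and 2 higher genes, and 0 were called. Over all tested genes that rule took 7.14% lower and 8.05% higher, 1.32% and 0.746%, and 3.41% and 5.53%, in the same order. The uptake gene npc1l1, whose product is the target of ezetimibe, was at 220.2, 277 and 128 CPM in D3, 123, 177 and 150.4 CPM in SBM and 212, 252 and 238 CPM in FM. Each SBM library lay below each FM library (−0.64 ± 0.29, edgeR unadjusted p = 0.059, adjusted p = 0.541), and D3 libraries lay on both sides. The exporter gene abcg5, which returns plant sterols and cholesterol to the gut lumen, was at 60.2, 53.96 and 21.9 CPM in D3, 37.1, 58.3 and 28.7 CPM in SBM and 43.4, 80 and 50.6 CPM in FM and the groups overlapped. The lysosomal carrier gene npc2 lay lower in each D3 library than in each FM library (mean 505 ± 105 CPM in D3 and 1011 ± 81.5 CPM in FM). The ester hydrolase gene nceh1b.1 had −1.10 ± 0.35 in D3 and −0.94 ± 0.35 in SBM against FM. In CPM each library of both groups lay below FM, D3 library 1 by a narrow margin (25.42 against 25.49 CPM in FM library 1). The raw counts of these libraries ran the other way, at 918 and 773. The lipoprotein gene apobb.2 was at 204, 299 and 11.6 CPM in D3, 36.96, 343 and 2.37 CPM in SBM and 6.001, 8.43 and 2.17 CPM in FM, highest in the 3 hepatocyte-rich libraries. The lipid transfer gene mtp was at 204, 152 and 55.2 CPM in D3, 66.2, 92.6 and 41.04 CPM in SBM and 107, 101 and 68.1 CPM in FM, highest in D3 libraries 1 and 2.

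Genes listed under SREBP1 and fatty acid synthesis (18 found and tested) included glyceride synthesis genes such as dgat2. As a list they showed no excess in FM library 1 by summed share of counts or mean log2 level. Their median was 0.50 for D3 over FM (4 higher genes with an unadjusted p under 0.05), 0.48 for D3 over SBM (1 higher) and 0.06 for SBM over FM (1 higher), and 0 were called. Over all tested genes 8.05, 0.746 and 5.53% were higher by that rule. The fatty acid synthase gene fasn was at 108, 13.6 and 37.97 CPM in D3, 34.1, 21.8 and 9.48 CPM in SBM and 6.73, 4.95 and 5.92 CPM in FM. Each D3 and each SBM library lay above each FM library, with log2 fold changes of 3.18 ± 0.75 (edgeR unadjusted p = 0.00252, adjusted p = 0.32) and 1.89 ± 0.72 (unadjusted p = 0.0283, adjusted p = 0.541). The acetyl-CoA carboxylase gene acaca was at 99.9, 41.1 and 10.04 CPM in D3, 22.4, 38.5 and 10.9 CPM in SBM and 13.1, 10.4 and 8.71 CPM in FM, highest in the 3 hepatocyte-rich libraries. The malic enzyme gene me1 (161, 46.8 and 13.4 CPM in D3, 10.4, 40.3 and 6.68 CPM in SBM and 12.3, 11.5 and 10.3 CPM in FM) had the same 3 libraries on top. For acss2, the acetyl-CoA synthetase gene, each D3 library lay above each SBM library (0.46 ± 0.19, unadjusted p = 0.0388, adjusted p = 1). In CPM the 3 hepatocyte-rich libraries were the 3 highest for 7 of the 18 genes (acaca, acacb, elovl6, fads2, me1, dgat2 and slc25a1b), for 0 of the 30 cholesterol genes and for 3.78% of all tested genes. The margin was narrow for dgat2 (30.7 in D3 library 2, 30.6 in FM library 3) and acacb (111.5 in SBM library 2, 109.4 in FM library 2). The same order held for 6 of 25 uptake, storage and export genes and 2 of 14 bile acid genes. It held for 0 prenyl branch genes and 0 remaining sterol and SREBP processing genes. The whole fatty acid list took 0.422, 0.205 and 0.402% of counts in D3 libraries 1 and 2 and SBM library 2, against 0.0747 to 0.151% in the other 6. The part of liver transcripts in the list's values was not tested. In FM library 1 the fatty acid list took 0.0965% of counts, against 0.151 and 0.134% in FM libraries 2 and 3. The 30 cholesterol genes took 0.399% against 0.175 and 0.145%. That share of the fatty acid list leaned on fads2, at 352, 847 and 806 CPM in FM. The list's mean log2 level, each gene centred over all libraries, was −0.24, −0.18 and −0.25 in FM. Of the genes named here, fasn, acaca, me1, elovl6 and slc25a1b were highest of FM in library 1, and fads2, acacb, dgat2 and acss2 lowest. Over the 18 genes FM library 1 was the highest FM library for most and the lowest for the rest.

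**Figure D4:**
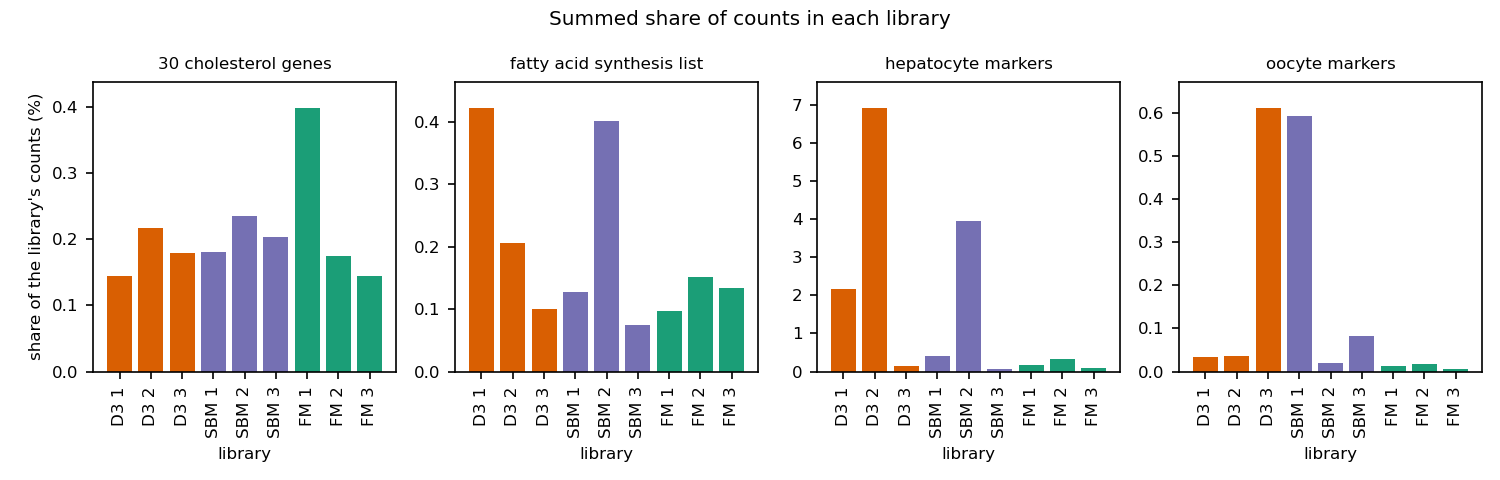
Summed share of each library's counts, in percent, for the 30 cholesterol genes, the fatty acid synthesis list, the hepatocyte markers and the oocyte markers (bars from 0, 1 bar a library, D3 orange, SBM purple, FM green, a separate scale in each panel). FM library 1 is the tallest bar for the cholesterol genes at 0.399% and is not the tallest in the other 3 panels.

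Genes that turn cholesterol into bile acids and oxysterols (14 found and tested) had a median of −0.32 for D3 over FM (1 higher and 2 lower genes with an unadjusted p under 0.05), 0.03 for D3 over SBM (0) and −0.20 for SBM over FM (2 lower), and 0 were called. Over all tested genes that rule took 8.05% higher and 7.14% lower for D3 over FM, 2.07% for D3 over SBM and 3.41% lower for SBM over FM. The sterol dehydrogenase gene hsd3b7 was at 131, 118 and 119.9 CPM in D3, 139.9, 218 and 106 CPM in SBM and 229, 381 and 223 CPM in FM, and the cholesterol hydroxylase gene cyp46a1.1 at 264, 254 and 191 CPM in D3, 168, 265 and 238 CPM in SBM and 362, 497 and 390.0 CPM in FM. Each D3 and each SBM library lay below each FM library for both. For hsd3b7 the log2 fold changes were −1.18 ± 0.32 in D3 and −0.84 ± 0.32 in SBM against FM, and for cyp46a1.1 −0.82 ± 0.25 and −0.90 ± 0.25. The edgeR adjusted p was 0.32 for both in D3 and 0.541 for both in SBM. The gene cyp8b3 was under 1 CPM in each library, with −1.55 ± 1.09 in D3 against SBM. Enterocyte markers had medians of −0.53 in D3 and −0.69 in SBM against FM, and their part was not tested.

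The prenyl branch leads from isoprenoid diphosphates to ubiquinone, dolichol, prenylated proteins and prenylated transfer RNA. Its genes (14 found and tested) had medians of 0.24, 0.08 and 0.10 for D3 over FM, D3 over SBM and SBM over FM. Of them 0 were called and 0 had an unadjusted p under 0.05. Over all tested genes the latter rule took 15.2, 2.07 and 8.94%. The transfer RNA prenyltransferase gene trit1 was at 5.37, 6.3 and 18.2 CPM in D3, 16.3, 5.55 and 7.49 CPM in SBM and 4.58, 4.41 and 5.02 CPM in FM, and the methyltransferase gene icmt at 10.9, 11.6 and 24.4 CPM in D3, 18.8, 10.3 and 11.8 CPM in SBM and 10.8, 8.82 and 9.61 CPM in FM. Each D3 library lay above each FM library for both, and the oocyte-rich libraries held the 2 highest levels. For icmt the margin was very narrow (10.856 CPM in D3 library 1, 10.848 CPM in FM library 1). The dolichyl phosphatase gene dolpp1 had 0.62 ± 0.30 in SBM against FM. For D3 over SBM, pdss2 (0.33 ± 0.30) and dhdds (0.19 ± 0.18) had the smallest unadjusted p of the list.

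Genes of the steroid-making gonad, a tissue that makes steroids from cholesterol, were measured beside the oocyte markers (12 found, 7 tested). The side-chain cleavage gene cyp11a1 was at 5.23, 5.204 and 142 CPM in D3, 117, 7.18 and 16.4 CPM in SBM and 3.23, 2.84 and 1.91 CPM in FM, and the hydroxylase gene cyp17a1 at 1.69, 3.23 and 44.8 CPM in D3, 41.6, 3.14 and 6.29 CPM in SBM and 1.38, 0.906 and 0.129 CPM in FM. Both were highest in the 2 oocyte-rich libraries, as were hsd3b2 and hsd17b1. Of the other tested genes of that list, star (3.004 CPM) and hsd17b3 (1.14 CPM) were highest in SBM library 2 and hsd3b1 (2.08 CPM) in FM library 2. Among the cholesterol genes ggps1, hmgcrb, lbr and mylipa had their 2 highest levels in the oocyte-rich libraries, and mvk was high there. The same order held for 27.3% of all tested genes. Those libraries held the 2 lowest levels of idi1, pmvk, fdft1, sc5d, scap and stard4. The share of all tested genes with that order was not computed, so it is not read as a trait of the cholesterol genes. Smooth muscle markers had medians of −0.71 in D3 and −0.45 in SBM against FM, led by acta2 (580.0, 417 and 387 CPM in D3, 438, 722 and 598 CPM in SBM and 661, 864 and 872 CPM in FM) and tagln (256, 222 and 167 CPM in D3, 184, 291 and 225 CPM in SBM and 298, 389 and 370.0 CPM in FM). Exocrine pancreas markers, led by prss59.1 and try, had medians of −0.79 and −0.48. Their part in the results above was not tested.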

How the data were processed

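RNA was measured by sequencing in 9 libraries of zebrafish intestine, and groups were taken from the sample titles. Per the labels' protocols, RNA came from a Qiagen RNeasy kit, 1.3 µg went into a library, and a SMARTer mRNA kit was used to prepare them. The authors deposited raw counts per gene, and an FPKM table (fragment counts over length and depth) made from them: each deposited FPKM is the count over 1 length per gene and the library total, with a largest relative deviation of 0.000122%. Aligner, counter, build and strand handling: not given in the sources used here.

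Counts were fitted in R 4.3.3 with edgeR 4.0.16: filterByExpr with a minimum count of 10 (19450 genes kept, 7533 removed), TMM factors (0.846 to 1.204), and 1 quasi-likelihood fit over the 9 libraries (6 residual degrees of freedom). Common dispersion came to 0.2548, or a biological variation of 50.5%. All tests were two-sided, adjusted by Benjamini-Hochberg over all genes and called under 0.05. The SE is the size of the log2 fold change over the square root of F. FPKM, which lacks TMM scaling, served to compare levels between genes. Overlap of groups was read from CPM with TMM scaling, and for a few named genes also from FPKM. Alternatives used limma 3.58.1 (voom, and log2 FPKM with pseudocounts of 1 and 0.1) and DESeq2 1.42.0. The scripts were tested on simulated data.

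The genes and lists were chosen with earlier results of these data known. Every gene of the set is named. Of each neighbouring list the 2 tested genes with the smallest unadjusted p in each comparison are named, with npc1l1, abcg5 and fasn, except for results that are not reported here. Of each marker list the 2 most abundant are named. Named after their values were seen were 5 fatty acid genes (acacb, elovl6, fads2, dgat2 and slc25a1b). So were 5 steroid-making gonad genes (star, hsd3b1, hsd3b2, hsd17b1 and hsd17b3) and vtg2. Of 102 names in the neighbouring lists 85 matched by symbol and 6 by synonym, and 11 did not match. Marker lists matched 89 and 4 of 96.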

Additional observations from a re-analysis of the deposited data

How the results depend on the processing

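None of these alternatives called any of the 30 genes in any comparison: library size alone, RLE factors, DESeq2, limma-voom, no filter, a minimum count of 50, the replicate block, only the 2 groups compared, and limma on log2 FPKM with pseudocounts of 1 and 0.1. Over all genes edgeR with TMM called 0 in each comparison, and DESeq2 called 918 for D3 over FM, 5 for D3 over SBM and 238 for SBM over FM. The sample labels do not say whether libraries with the same replicate number belong together. Among same-numbered pairs 3 of 9 had residuals correlated above 0.1 (−0.58 to 0.52), and the other pairs ran from −0.65 to 0.71. With 3 libraries a group these correlations cannot decide it. With the replicate block, edgeR called 0 genes in each comparison and the median over the 30 genes was −0.38, −0.10 and −0.20 in the same order, against −0.29, −0.11 and −0.27 without it. Library size alone shifted the median of all genes to 0.30, 0.03 and 0.26, and that of the 30 genes to −0.04, −0.10 and −0.03. On log2 FPKM, also without TMM scaling, the median for SBM over FM was 0.078 (pseudocount 1) and 0.088 (pseudocount 0.1), against 0.12 and 0.21 over all genes.

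With each library left out in turn the median ran from −0.68 (without D3 library 2) to 0.033 (without FM library 1) in D3 against FM, and from −0.56 (without SBM library 2) to 0.22 (without FM library 1) in SBM against FM. Of 90 log2 fold changes 35 exceeded their SE. Among these 9 changed sign, each when 1 library was left out. In D3 against FM the ranges were −1.50 to 0.10 for idi1, −1.36 to 0.20 for fdps and −0.89 to 0.076 for lss. In SBM against FM they were −1.20 to 0.43 for idi1, −0.86 to 0.078 for fdft1, −1.04 to 0.068 for sqlea, −1.16 to 0.21 for hsd17b7 and −0.71 to 0.056 for ebp. The upper end was without FM library 1 each time. In D3 against SBM, hmgcra ran from −0.84 to 0.11 (without SBM library 2). The 55 log2 fold changes smaller than their SE changed sign in 176 of 1155 refits.

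Added after the data were seen, the fit without the 3 libraries richest in hepatocyte markers left D3 library 3 alone in its group, and that library is assumed to vary like the others. It is also the library richest in oocyte markers (0.612% of counts). That fit called 2053 genes in D3 against FM, 1 of the 30 among them (lbr, 1.53, edgeR adjusted p = 0.0419, against 0.146 to 0.674 over the other alternatives), and the median was −0.89. The level of lbr was highest in that library, at 31.9 CPM, and its log2 fold change was 0.57 without the 2 oocyte-rich libraries. Without the 2 oocyte-rich libraries 0 genes were called in each comparison. The cause of these changes was not tested. Counting error is small at 114 counts or more, so the spread between 3 libraries a group limits these comparisons.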
